A study of Mus musculus with 6 samples.

Results

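A set of 7 genes of mucosal antimicrobial defence, Cd14, Pglyrp3, Lcn2, Chil1, Dmbt1, Tff2 and Duox2, were followed across colonies grown from adult mouse pancreas after knockdown of Glis3 or CD133. They are 7 of 11164 genes in the expression table, and several of them were chosen by their large differences between these same groups, so their own differences are given below as a description without a test. All 7 had a mean of at least 1 RPKM (reads per kilobase of transcript per megaread) over the 6 libraries, the level asked of a gene to enter the fit, as had 10829 genes in all.

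Pancreatic cells with much CD133 on their surface (a membrane glycoprotein whose gene is Prom1) and little CD71 had been sorted from C57Bl/6 mice aged 2 to 4 months. The shControl group received a single lentiviral shRNA without a mammalian target, the shGlis3 group a pool of 5 shRNA clones against Glis3, whose protein is a Gli-similar DNA-binding regulator, and the shCD133 group a pool of 5 clones against CD133. All groups were exposed to polybrene overnight and grown under puromycin in methylcellulose and Matrigel with serum, conditioned medium, activin B, exendin-4, RSPO1 and nicotinamide, and primary colonies were collected after 3 weeks. Each group has 2 libraries, numbered 1 and 3, and the labels do not say whether these came from separate animals or cultures, so errors describe the spread between these libraries, which may be technical. Both knockdowns were compared with the same control libraries, and a single control shRNA against pools of 5 is a difference that both share.

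Epithelia that face the outside secrete proteins that bind, kill or starve microbes, and coat themselves with mucus that holds these proteins in place. Pattern receptors such as CD14 report bacterial products to Toll-like receptors, and signals through NF-kB and STAT3 raise the genes of several secreted defence proteins. Pancreatic ducts belong to this kind of epithelium: they express mucus-layer and antimicrobial genes, more of them during inflammation.

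The targeted genes followed the labels. Glis3 stood at 13.3 and 12.0 RPKM in the shGlis3 libraries against 26.1 and 24.2 in control, and Prom1 at 88.0 and 96.0 RPKM in the shCD133 libraries against 191 and 203 in control. Of 11 ductal epithelial markers 10 had values, with summed levels of 9550 to 10160 RPKM in control, 7578 to 8868 in shGlis3 and 7576 to 7898 in shCD133, of which Spp1 (osteopontin) made up 3127 to 6733 RPKM. Without Spp1 the other 9 summed to 3060 and 3428 RPKM in control, 3656 and 3410 in shGlis3, which overlapped control, and 4449 and 3697 in shCD133. The shCD133 sums thus turned from below control to above it, and Krt8, Krt19, Cdh1 and Sox9 rose there (adjusted p = 0.0451, 0.0312, 0.0334 and 0.0151). Of 13 macrophage markers only Cd68 had a value, at 5.12 to 6.39 RPKM over the 6 libraries, while markers of neutrophils (10), mesenchymal cells (9) and endothelial cells (5) had none in the table and are not analysed here. Of 13 acinar markers Cela1 and Reg1 had values, with sums of 197 to 305 RPKM in control, 49.3 to 109 in shGlis3 and 383 to 389 in shCD133. Cela1 was only at 0.49 to 1.06 RPKM, so these sums are almost wholly Reg1 and do not measure acinar cells. Of 9 endocrine markers 4 had values, with sums of 3.51 to 9.70 RPKM in control, 6.04 to 12.2 in shGlis3 and 0.86 to 2.61 in shCD133. Depth, estimated from the steps between low values, was 25.8 to 29.2 megareads per library. In such bulk samples fewer cells of one kind and less RNA per cell cannot be told apart.

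Seen together, 5 of the 7 genes were lower and 2 higher in both shGlis3 libraries than in both control libraries. Over all genes tested, 21.1% lay lower and 38.5% higher in this way. In the CD133 knockdown, 4 of the 7 were lower and 2 higher without overlap, beside 22.1% and 40.3% of all genes. Each of the 7 had a mean difference of the same sign in both knockdowns: Pglyrp3, Chil1, Lcn2, Tff2 and Cd14 below control, Dmbt1 and Duox2 above it. Between the knockdowns, 5 of the 7 were lower in shGlis3 than in shCD133 (26.8% of all genes) and 0 were higher (27.9% of all genes). Because the genes were picked with these differences known, nothing is read from these counts.

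**Figure D1:**
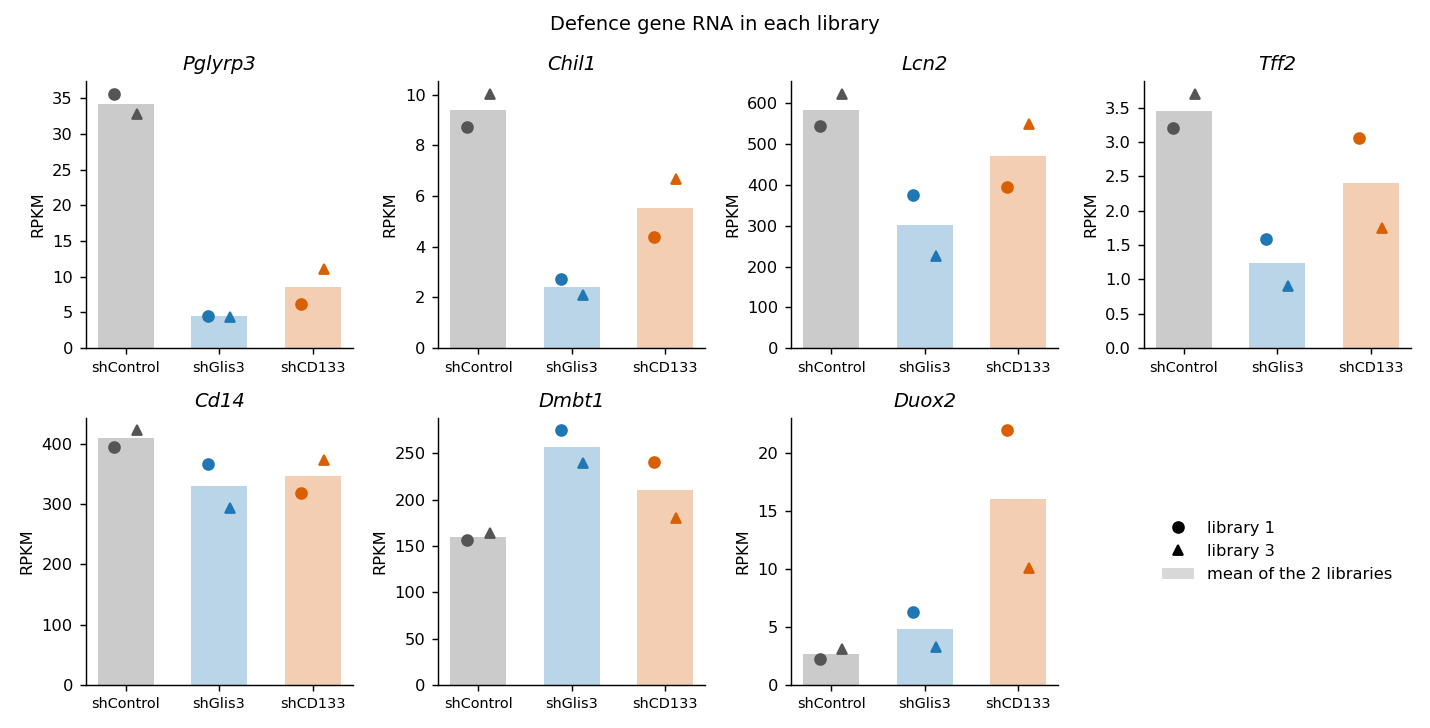
RNA level in RPKM (vertical axis, from 0) of the 7 defence genes in the 3 groups; circles are library 1, triangles library 3, bars the mean of the 2. Pglyrp3 drops from above 32 RPKM in both controls to between 4.41 and 11.04 in the knockdowns, and Duox2 reaches 22.0 and 10.1 RPKM in the shCD133 libraries.

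Cd14 (ENSMUSG00000051439.7, chromosome 18: 36725067 to 36726798, minus strand, GRCm38), the membrane or soluble receptor that hands lipopolysaccharide to Toll-like receptor 4, was among the most abundant RNAs of these colonies, at rank 57 of 11164 in control. Its level was 395 and 422 RPKM in control libraries 1 and 3, 366 and 293 in shGlis3 libraries 1 and 3, and 319 and 374 in shCD133 libraries 1 and 3. All knockdown libraries lay under both controls, by a small margin: the mean was 80.6% of control in shGlis3 (log2 difference -0.32, SE 0.12) and 84.7% in shCD133 (-0.24, SE 0.12). The first was -0.16 without shGlis3 library 3 and -0.21 after quantile normalization, and the second -0.13 without shCD133 library 1 and -0.07 after quantile normalization. The knockdowns overlapped each other. Cd14 is best known from monocytes and macrophages. The 1 macrophage marker with a value, Cd68, was at 5.23 and 5.83 RPKM in the control libraries. Which cells carried the Cd14 RNA was not tested.

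The partners of Cd14 in lipopolysaccharide sensing did not share one pattern. Lbp, the secreted protein that delivers lipopolysaccharide to CD14, stood at 95.3 and 96.9 RPKM in control, 38.1 and 22.0 in shGlis3, and 43.7 and 76.2 in shCD133. It fell in the Glis3 knockdown (log2 difference -1.69, SE 0.30, limma adjusted p = 0.019) and did not pass the threshold in the CD133 knockdown (-0.72, SE 0.30, adjusted p = 0.161). Tlr4, the receptor itself, lay between 7.69 and 8.92 RPKM and Ly96, its coreceptor MD-2, between 3.11 and 3.91 RPKM in all 6 libraries, with log2 differences from control of 0.13 and 0.10 in shGlis3 and of -0.01 and 0.03 in shCD133, none past the threshold. Per unit of length Cd14 RNA was 33.3 to 51.1 times the level of Tlr4 RNA in these libraries.

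Pglyrp3 (ENSMUSG00000042244.4, chromosome 3: 92014583 to 92031582, plus strand) encodes a secreted peptidoglycan recognition protein that binds bacterial cell walls and is bactericidal. It measured 35.6 and 32.7 RPKM in control libraries 1 and 3, 4.48 and 4.41 in the shGlis3 libraries, and 6.14 and 11.04 in the shCD133 libraries. No knockdown library came near control, and both shGlis3 libraries lay under both shCD133 libraries. The mean was 7.69-fold lower than control in shGlis3 (13% of control; log2 difference -2.69, SE 0.21) and 3.98-fold lower in shCD133 (25.1%; -1.92, SE 0.21). The shGlis3 libraries were almost equal, with a gap of 0.02 on the log2 scale, whereas the shCD133 libraries were 0.75 apart, wider than 99.7% of the genes tested. About 1057 and 1058 reads lay behind the control values and 134 to 334 behind the knockdown values, as estimated from exon length and depth.

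Its paralog Pglyrp1, another bactericidal peptidoglycan recognition protein, had another pattern. Pglyrp1 measured 20.2 and 27.7 RPKM in control, 27.6 and 21.3 in shGlis3, and 49.9 and 40.7 in shCD133. It rose in the CD133 knockdown (log2 difference 0.90, SE 0.18, adjusted p = 0.0283) and was at 0.03 (SE 0.18, adjusted p = 0.928) in the Glis3 knockdown. Pglyrp3 was the more abundant of the pair per unit of length in both controls, with a Pglyrp1 to Pglyrp3 ratio of 0.568 and 0.846, and the less abundant in all 4 knockdown libraries, with ratios of 3.68 to 8.12.

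Lcn2 (ENSMUSG00000026822.14, chromosome 2: 32384633 to 32388252, minus strand) encodes lipocalin 2, which withholds iron from bacteria by binding their siderophores. It ranked 35 in control, with 544 and 623 RPKM in libraries 1 and 3, against 375 and 226 in shGlis3 and 395 and 548 in shCD133. Both shGlis3 libraries were under both controls, while shCD133 library 3 lay inside the control range. The mean was 51.5% of control in shGlis3 (log2 difference -0.997, SE 0.25, or -0.63 without shGlis3 library 3) and 80.8% in shCD133 (-0.32, SE 0.25, or -0.09 without shCD133 library 1 and -0.18 after quantile normalization). Replicates were far apart in both knockdowns, by 0.72 and 0.47 on the log2 scale, against medians over all tested genes of 0.08 and 0.07.

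Ltf, which encodes the other iron-binding defence protein measured, lactotransferrin, did not share the pattern of Lcn2. It stood at 81.4 and 89.2 RPKM in control, 92.6 and 273 in shGlis3, and 260 and 218 in shCD133. The shGlis3 libraries thus split, library 1 near control and library 3 near the CD133 knockdown, and Ltf passed the threshold in neither comparison (log2 difference 0.89, SE 0.43, adjusted p = 0.215 in shGlis3; 1.47, SE 0.43, adjusted p = 0.0712 in shCD133).

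Chil1 (ENSMUSG00000064246.10, chromosome 1: 134182176 to 134190181, plus strand) encodes a secreted chitinase-like lectin that binds chitin without cleaving it. It measured 8.72 and 10.0 RPKM in control, 2.73 and 2.08 in shGlis3, and 4.37 and 6.67 in shCD133. The 3 groups did not overlap: control was highest, shCD133 between, shGlis3 lowest. The mean was 3.90-fold lower than control in shGlis3 (log2 difference -1.61, SE 0.18) and 1.70-fold lower in shCD133 (-0.69, SE 0.18, or -0.43 without shCD133 library 1). On the log2(RPKM + 1) scale these differences depend on the constant added: the first was -1.93 with 0.1 RPKM and -0.96 with 5 RPKM, and the second -0.46 with 5 RPKM.

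Of the 7 genes, Lcn2 and Chil1 had the most similar profiles over the 6 libraries, with a root mean square distance of 0.284 between their mean-centred log2 values; it reached 1.85 for Pglyrp3 and Duox2. The sequences before their RefSeq starts (GRCm38.p6) are shown for this likeness, limited to bases outside exons of basic GENCODE M21 transcripts. The Lcn2 stretch lies within the GENCODE M21 span of that gene, which reaches 32388252. The stretch of Lcn2 is chr2:32387798-32387989 on the minus strand and that of Chil1 chr1:134181906-134182155 on the plus strand, each 5′ to 3′, with capitals for a match to one of 6 motifs searched on both strands.

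Lcn2: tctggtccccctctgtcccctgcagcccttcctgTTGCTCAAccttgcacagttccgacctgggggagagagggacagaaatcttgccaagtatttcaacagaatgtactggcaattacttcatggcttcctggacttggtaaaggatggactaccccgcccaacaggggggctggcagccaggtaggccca

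Chil1: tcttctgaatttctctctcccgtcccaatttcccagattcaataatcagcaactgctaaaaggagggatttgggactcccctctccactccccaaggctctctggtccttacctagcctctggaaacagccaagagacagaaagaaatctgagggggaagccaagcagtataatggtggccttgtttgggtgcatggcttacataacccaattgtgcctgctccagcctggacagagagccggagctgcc

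The motifs were TGGGGGGT (core of the site of Gli-similar factors), GGANTTTCC (NF-kB), TTGCNNAA (C/EBP), TTCNNNGAA (STAT), TGANTCA (AP-1) and TATAAA (core promoter box). They were found in 1.53%, 1.25%, 10.8%, 8.30%, 7.81% and 13.6% of 32851 RefSeq promoter windows of the same 300 bases, 250 before and 50 after the start. The Lcn2 window held 1 match, to TTGCNNAA, whose first base lies 216 bases before the start, and the letters of the 6 motifs were not found in the Chil1 window. RefSeq windows were matched for 3 of the 7 genes (Lcn2, Chil1 and Duox2) and for Duoxa2.

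Dmbt1 (ENSMUSG00000047517.11, chromosome 7: 131032053 to 131121630, plus strand) encodes a mucus-associated scavenger receptor that agglutinates bacteria. It measured 157 and 164 RPKM in control, 275 and 239 in shGlis3, and 241 and 180 in shCD133. Every knockdown library was above both controls, and shCD133 library 3 came closest to them. The mean was 1.61-fold control in shGlis3 (log2 difference 0.68, SE 0.14) and 1.31-fold in shCD133 (0.38, SE 0.14, or 0.17 without shCD133 library 1).

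Tff2 (ENSMUSG00000024028.7, chromosome 17: 31141049 to 31144282, minus strand), a trefoil peptide that is secreted with mucus and known for mucosal repair in the stomach, was the member with the fewest reads. It measured 3.20 and 3.70 RPKM in control, 1.58 and 0.90 in shGlis3, and 3.06 and 1.75 in shCD133, from about 15 to 63 reads per library. Both knockdowns lay under control without overlap, shCD133 library 1 only just. The mean was 2.78-fold lower than control in shGlis3 (log2 difference -1.005, SE 0.21, but -0.44 with 5 RPKM added and -1.45 with 0.1) and 1.43-fold lower in shCD133 (-0.41, SE 0.21, or -0.13 without shCD133 library 3 and -0.20 with 5 RPKM added). Its neighbour and paralog Tff1, at 0.08 to 0.31 RPKM in 5 libraries, reached 6.76 RPKM in shGlis3 library 3, the library where Tff2 was lowest. The exons of Tff1 overlap a transcript on the opposite strand, and use of strand in counting is not given in the sources used here.

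Duox2 (ENSMUSG00000068452.8, chromosome 2: 122279247 to 122298449, minus strand) encodes a dual oxidase that releases hydrogen peroxide at the apical surface of epithelia. It measured 2.25 and 3.13 RPKM in control, 6.30 and 3.29 in shGlis3, and 22.0 and 10.1 in shCD133. Both shCD133 libraries stood well above all others, whereas shGlis3 library 3 was barely above the higher control. The mean was 5.96-fold control in shCD133 (log2 difference 2.13, SE 0.37, or 1.40 with 5 RPKM added) and 1.78-fold in shGlis3 (0.61, SE 0.37). The latter was 0.23 without shGlis3 library 1, 0.99 without shGlis3 library 3 and 0.33 with 5 RPKM added. It was also the least even member: the gap between its libraries was 0.35 in control, 0.77 in shGlis3 and 1.05 in shCD133 on the log2 scale, wider than 97.7%, 99.5% and 99.9% of the genes tested. About 3464 and 1689 reads lay behind the shCD133 values.

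Duoxa2, the maturation factor that dual oxidase 2 needs to leave the endoplasmic reticulum, is the divergent neighbour of Duox2 and had a similar profile. It measured 2.11 and 2.97 RPKM in control, 5.62 and 2.14 in shGlis3, and 14.4 and 6.57 in shCD133. In shGlis3 library 3 Duoxa2 lay inside the control range. The ratio of Duoxa2 to Duox2 was 0.938 and 0.949 in control, 0.892 and 0.650 in shGlis3, and 0.656 and 0.649 in shCD133. It was thus lower in all knockdown libraries than in both controls, while each level varied several-fold. As a single gene Duoxa2 did not pass the threshold (log2 difference 1.62, SE 0.42, adjusted p = 0.0528 in shCD133; 0.38, SE 0.42, adjusted p = 0.585 in shGlis3). Its last exon overlaps exons of Duoxa1 on the opposite strand. Noxo1, the organizer subunit of the NADPH oxidase Nox1, measured 3.06 and 3.56 RPKM in control, 5.88 and 4.31 in shGlis3, and 7.0 and 6.91 in shCD133. It rose in the CD133 knockdown (log2 difference 0.89, SE 0.13, limma adjusted p = 0.0154). Noxo1 was 1 of 4 other genes tested for epithelial peroxide and nitric oxide production (25%, against 8.16% of all genes that rose there). Cyba, the most abundant of these 4, stood at 75.04 and 95.35 RPKM in control and passed in neither comparison with control.

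In GENCODE M21, 450 bases separate Duox2 and Duoxa2, which point away from each other. The part of this interval nearer Duoxa2 is chr2:122298650-122298899 on the plus strand, shown because both genes flank it and had similar profiles. The Duox2 stretch is chr2:122298178-122298207 on the minus strand, inside the first exon of a longer Duox2 transcript (122298096 to 122298449), shown because it holds the letters of the Gli-similar motif. Capitals mark motif matches.

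Duoxa2: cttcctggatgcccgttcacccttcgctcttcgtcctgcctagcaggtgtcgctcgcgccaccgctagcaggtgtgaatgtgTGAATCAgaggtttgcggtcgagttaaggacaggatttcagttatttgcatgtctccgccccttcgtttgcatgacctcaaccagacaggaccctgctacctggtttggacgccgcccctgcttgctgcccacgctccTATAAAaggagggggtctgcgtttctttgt

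Duox2: gctcttgacacactACCCCCCAccgccggg

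The window of Duoxa2 held a match to the AP-1 pattern, 168 bases before the start, and TATAAA, 30 bases before it. The pattern TGANTCA, in which N is any base, reads alike on both strands, so TGAATCA matched it on each. This match does not overlap TATAAA. The Duox2 window held TGGGGGGT on its other strand, with a first base 35 bases after the RefSeq start. These are matches of letters in DNA, and binding was not measured.

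**Figure D2:**
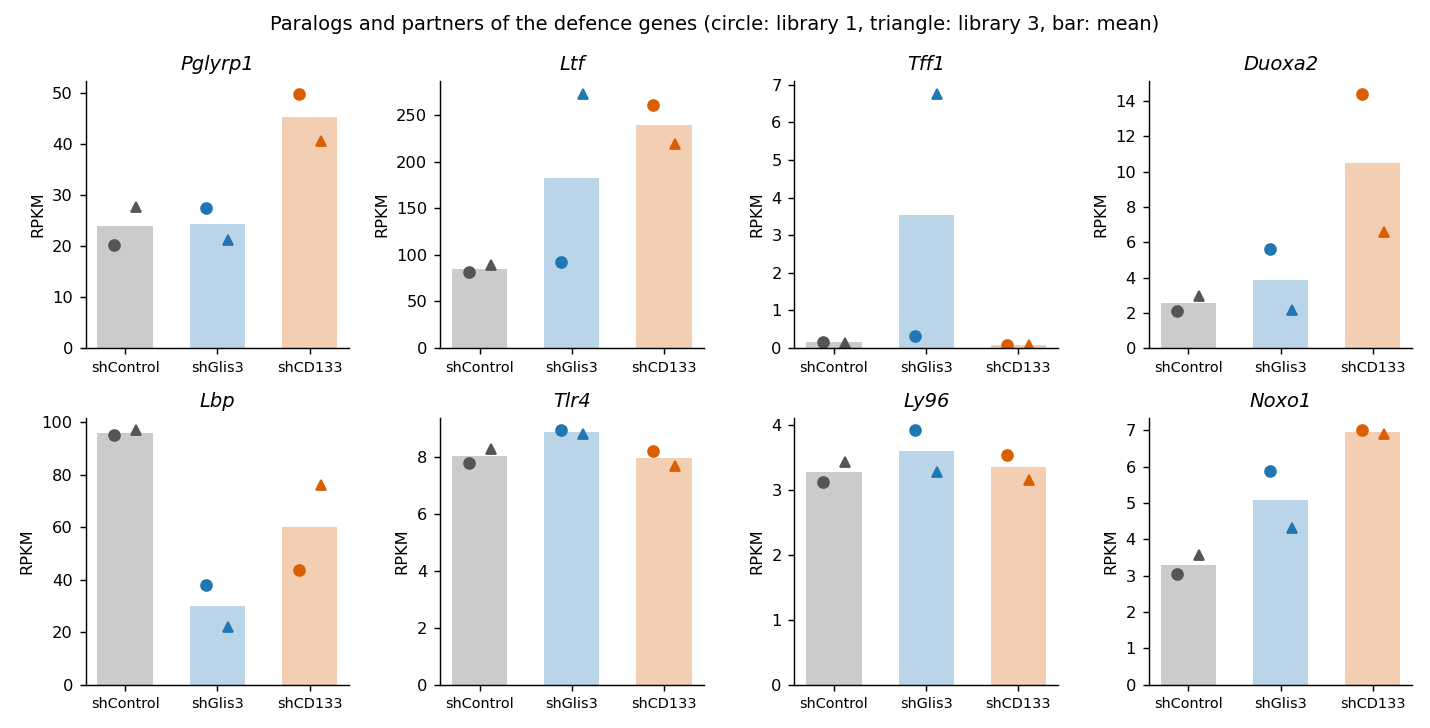
RNA level in RPKM (vertical axis, from 0) of paralogs and partners of the 7 genes; circles are library 1, triangles library 3, bars the mean of the 2. Duoxa2 shows the same order of libraries within shGlis3 and shCD133 as Duox2, Tlr4 and Ly96 stay level, and Tff1 and Ltf differ widely between the shGlis3 libraries.

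Within each knockdown, the distances of libraries 1 and 3 from the control mean were compared. In shCD133, library 3 was nearer the control mean than library 1 for 6 of the 7 genes (all but Tff2), as it was for 58.0% of all genes tested. In shGlis3, library 3 was nearer only for Dmbt1 and Duox2, against 43.1% of all genes. Prom1 itself stood at 88.0 RPKM in shCD133 library 1 and 96.0 in library 3. The part of knockdown depth or of any other library property in these gaps was not tested.

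**Figure D3:**
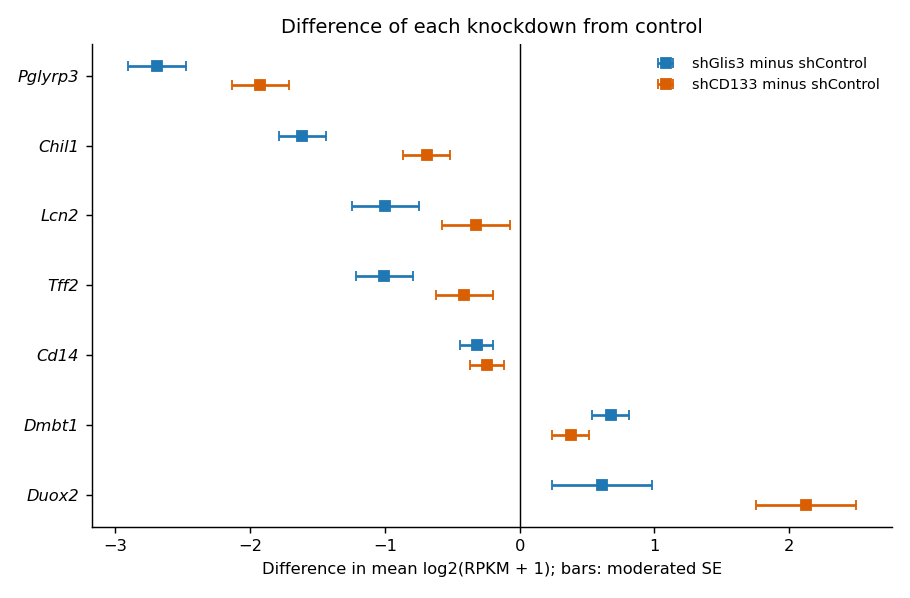
Difference in mean log2(RPKM + 1) from control (horizontal axis) for each of the 7 genes, blue for shGlis3 and orange for shCD133, with bars of 1 moderated standard error. Pglyrp3 lies farthest below 0 in both knockdowns (-2.69 and -1.92), and Duox2 farthest above 0 in shCD133 (2.13).

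For each member, the 3 genes with the nearest profile were sought by root mean square distance between mean-centred log2 values over the 6 libraries. Closest to Lcn2 was Cxcl5, a neutrophil-attracting chemokine (distance 0.097), with 356 and 430 RPKM in control, 260 and 175 in shGlis3, and 314 and 390 in shCD133, followed by Plpp3 (lipid phosphatase) and Fbln2 (fibulin 2). Closest to Chil1 were Foxj1, the transcription factor of motile cilia (0.153), Lbp (0.171) and Igfbp7 (0.186). Nearest to Pglyrp3, whose own profile had the largest size (1.15 against 0.179 to 0.974), were Gpx3 (plasma glutathione peroxidase, 0.368), Trf (transferrin, 0.396) and Mmp13 (collagenase, 0.398), all of them also far lower in both knockdowns. Duox2 was followed by C4bp, an inhibitor of complement (0.222), Duoxa2 (0.225) and Clca3b (0.232), and Tff2 by Aoc1 (diamine oxidase, 0.177), Sorcs2 (0.178) and Adamts1 (0.180). For Dmbt1 Sprr2a2 (0.086) and Gstm7 were near, and for Cd14 Hdac11 (0.022), Pnrc1 and Pamr1. These likenesses describe 6 libraries, and genes of large families such as Sprr2 and Gstm share similar sequence.

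Further defence genes came from 5 lists of textbook roles, 151 genes besides the 7, of which 80 were tested. The lists were chosen with earlier results of these data known. Their shares, here and below, are therefore a description, and nothing is read from an excess over all genes. In the Glis3 knockdown 4 of the 80 rose (5.00%, against 8.39% of all genes tested), 11 fell (13.8%, against 4.53%) and 65 did not pass. In the CD133 knockdown 7 rose (8.75%, against 8.16%), 9 fell (11.2%, against 3.64%) and 64 did not pass. Medians of the 80 were -0.07 and -0.01 on the log2 scale, against 0.04 for all genes in each. Between the knockdowns 3 were higher in shGlis3 (3.75%, against 1.61% of all genes), 5 were lower (6.25%, against 2.46%) and 72 did not pass. Over all genes, 909 rose and 491 fell in the Glis3 knockdown, and 884 rose and 394 fell in the CD133 knockdown. That balance depends on scaling: with each library centred on its median the counts were 576 and 712, and 559 and 612, and after quantile normalization 641 and 621, and 547 and 538.

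Among other secreted antimicrobial proteins, 3 of 11 tested fell (27.3%, against 4.53% of all genes) and 1 rose (9.09%, against 8.39%) in shGlis3. The CD133 knockdown had 3 that fell (27.3%, against 3.64%) and 2 that rose (18.2%, against 8.16%). Reg3g, a lectin that kills Gram-positive bacteria, measured 7.04 and 8.31 RPKM in control, 3.45 and 1.66 in shGlis3, and 8.89 and 14.0 in shCD133. It fell in the Glis3 knockdown (log2 difference -1.33, SE 0.27, limma adjusted p = 0.028) and differed between the knockdowns (-1.82, SE 0.27, adjusted p = 0.0229). Its relative Reg3b also differed between the knockdowns (-1.82, SE 0.33, adjusted p = 0.0396). Against control Reg3b did not pass in shGlis3 (-1.21, limma adjusted p = 0.0589) or in shCD133 (0.61, adjusted p = 0.259). C3, the central complement protein and the most abundant of these genes, fell by 0.82 in shGlis3 (SE 0.16, adjusted p = 0.0225), from 453 and 493 to 310 and 232 RPKM. Ccl20, a chemokine with antibacterial activity, rose in both, from 18.5 and 21.6 RPKM to 32.7 and 33.6 in shGlis3 (0.70, SE 0.08, adjusted p = 0.00655) and to 37.3 and 36.4 in shCD133 (0.85, SE 0.08, adjusted p = 0.00936). Wfdc2, a whey acidic protein of epithelial secretions, and Rnase4, a secreted ribonuclease, fell in the CD133 knockdown by 0.81 and 0.80, and Wfdc15b fell in both. Reg3b and Reg3g have similar sequences, so reads may be shared between them and their values are uncertain. The acinar marker Reg1, of the same Reg family, moved with both: it stood at 197 and 304 RPKM in control, 108 and 48.6 in shGlis3, and 388 and 382 in shCD133 (log2 difference -1.74, adjusted p = 0.0281 in shGlis3; between the knockdowns -2.40, adjusted p = 0.0229). Its part in the Reg3 differences was not tested.

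Of 20 other sensors and signal carriers tested, 2 fell in the Glis3 knockdown (10.0%, against 4.53% of all genes) and 0 rose (against 8.39%). Those that fell were Lbp and Irak3, a brake on Toll-like receptor signalling. In the CD133 knockdown 2 rose (10.0%, against 8.16%) and 2 fell (10.0%, against 3.64%). In the CD133 knockdown Nod2, an intracellular sensor of peptidoglycan fragments, rose from 0.72 and 0.89 RPKM to 1.75 and 1.78 (log2 difference 0.62, SE 0.09, adjusted p = 0.017), and Sigirr, an inhibitory receptor of the family, rose by 0.36. Xiap and Traf6, ubiquitin ligases of these pathways, fell there by 0.37 and 0.25. Muc1, a membrane mucin and the 1 mucin of the list with a value, lay between 259 and 317 RPKM in all libraries, with log2 differences of -0.03 in shGlis3 and -0.004 in shCD133. In the mucin and trefoil list Galnt12, which starts O-linked sugar chains, rose by 0.32 in shGlis3. It was 1 of 3 tested in that list (33.3%, against 8.39% of all genes).

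Receptors and regulators upstream of epithelial defence held the remaining calls. Of 42 tested, 6 fell (14.3%, against 4.53% of all genes) and 2 rose (4.76%, against 8.39%) in the Glis3 knockdown. For the CD133 knockdown these were 4 (9.52%, against 3.64%) and 2 (4.76%, against 8.16%). Osmr, the receptor of oncostatin M, fell in both, from 9.63 and 8.40 RPKM in control to 4.36 and 3.25 in shGlis3 (log2 difference -1.07, SE 0.19, adjusted p = 0.018) and 3.30 and 5.22 in shCD133 (-0.95, SE 0.19, adjusted p = 0.0276). Stat3, which relays oncostatin M and interleukin 6 family signals, fell by 0.48 and 0.42, and Il4ra, the interleukin 4 receptor, by 0.60 and 0.61. Socs3, the feedback inhibitor induced by STAT3, fell in the CD133 knockdown by 1.01 (SE 0.12, adjusted p = 0.0119) and was at -0.36 (adjusted p = 0.0878) in the Glis3 knockdown, a difference between the knockdowns of 0.64 (adjusted p = 0.0402). Il1r1, the interleukin 1 receptor, fell by 0.77 in shGlis3, where Il1a, one of its ligands, rose by 0.87, from 1.14 and 0.85 to 2.14 and 3.24 RPKM. Ikbke, a kinase of the NF-kB and interferon pathways, rose by 0.59 in the CD133 knockdown. Elf3, an epithelial transcription factor, rose by 0.37 and 0.24, the latter lost after quantile normalization, median centring and without the variance trend. Ehf, its relative and the most abundant regulator listed, had log2 differences of 0.09 and 0.19 that did not pass. The NF-kB subunit genes Rela, Rel, Relb, Nfkb1 and Nfkb2 passed in neither comparison with control. Most genes tested did not pass either: 8.39% rose and 4.53% fell in shGlis3, and 8.16% rose and 3.64% fell in shCD133.

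**Figure D4:**
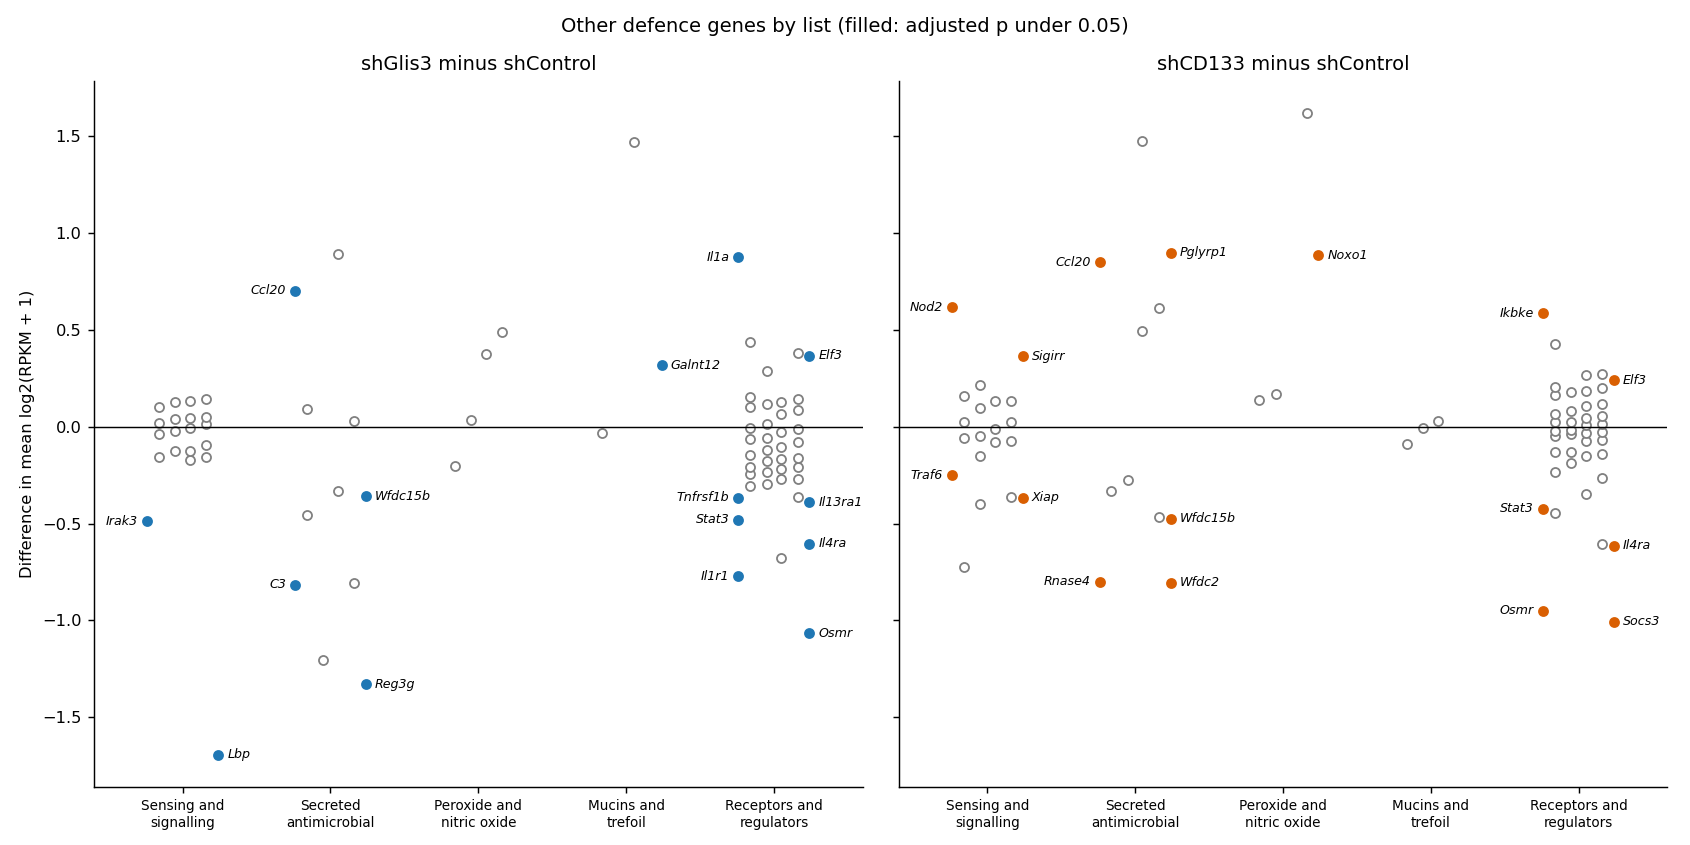
Difference in mean log2(RPKM + 1) from control (vertical axis) for the tested genes of the 5 defence lists besides the 7 members, shGlis3 at left and shCD133 at right; filled points are genes with a limma adjusted p under 0.05, named beside them, open points did not pass. Lbp at -1.69 and Reg3g at -1.33 lie lowest among the filled points at left, and Socs3 at -1.01 at right.

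The calls in the lists depended on single libraries. Of the 15 in the Glis3 knockdown, 0 remained without control library 1, 1 without control library 3 and 2 without shGlis3 library 3. Of the 16 in the CD133 knockdown, 0 remained without control library 1, 0 without control library 3, 0 without shCD133 library 1 and 8 without shCD133 library 3. Of the 8 between the knockdowns, the differences of Reg3g, Reg3b and Socs3 among them, 0 remained without control library 1, control library 3, shCD133 library 1 or shCD133 library 3, and 6 and 3 without shGlis3 libraries 1 and 3. All kept their sign in each of these fits. In the CD133 knockdown Wfdc2 was also lost after quantile normalization. With 5 RPKM added in place of 1, Il1a was at 0.36, Reg3g at -0.76, Osmr at -0.67, Irak3 at -0.17 and Wfdc15b at -0.17 in shGlis3, and Nod2 at 0.22, Noxo1 at 0.53, Ikbke at 0.38, Osmr at -0.60 and Wfdc15b at -0.22 in shCD133. With 0.1 RPKM added, Il1a was at 1.33 and Irak3 at -0.83 in shGlis3 and Nod2 at 1.05 in shCD133.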

How the data were processed

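Poly(A)-selected stranded RNA-seq of 6 libraries (3 groups of 2) was analysed. The authors deposited RPKM values for 11164 genes, and each column was assigned by the name in the sample's description. TopHat2, HTSeq, bcl2fastq 2.18.0.12 and the mm10 build appear, without order or settings, per the submitters' processing notes. Annotation, library totals and strand use were not given in the sources used here. Every gene listed reaches 1.00 RPKM in some library.

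Depth was estimated by scanning 15 to 45 megareads for the depth at which low values become whole reads. Low values were those under 3 RPKM, of genes with 1 basic GENCODE M21 transcript under 1200 bases. At the best depth 56.8% to 62.6% were whole to 0.15 read. At a depth set beforehand 30% would be whole by chance. The chance level of a best depth is higher and was not estimated. Reads were not recovered, and no count test was run. Read numbers given for a gene are approximate.

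Values were analysed as log2(RPKM + 1) for 10829 genes whose mean reached 1 RPKM. limma 3.58.1 (R 4.3.3; trend, 3 group means, 3 residual and 3.69 prior degrees of freedom, two-sided) gave differences, moderated standard errors and Benjamini-Hochberg adjusted p over all genes tested, with a threshold of 0.05, and was tested on simulated data. Folds of means are ratios of RPKM. Log2 differences understate changes of low genes.

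The members and the lists were chosen with earlier results of these data known. Named by rule were the 7 members, listed partners and paralogs, up to 4 called genes per list and comparison with control by size, the most abundant gene of a list, and the 3 nearest profiles per member, of which 1 is not reported here. Stat3, Elf3, Ltf, Reg3b and the NF-kB subunits fall outside the rule and were chosen after their values were seen. Motifs were also chosen then. Coordinates are GENCODE M21 (GRCm38, the assembly of mm10); promoters are RefSeq's for GRCm38.p6. Alternatives covered added constants, filters, scaling, the variance trend, the groups fitted, a replicate block and leaving out each library.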

Additional observations from a re-analysis of the deposited data

How the results depend on the processing

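The members' log2 differences changed sign under an alternative only for Cd14 between the knockdowns (-0.08), at 0.084 without shGlis3 library 3 and 0.04 without shCD133 library 3 (-0.24 to 0.084 on leaving out a library). Genes past the threshold numbered 1400 in the Glis3 knockdown (913 with a mean of at least 5 RPKM; 21 to 1334 on leaving out a library), 1278 in the CD133 knockdown (0 to 1657) and 440 between the knockdowns (58 with only those groups fitted; 25 to 743). Other defence genes past it numbered 15 (23 with median centring; 0 to 24), 16 (0 to 22) and 8 (0 with only the compared groups fitted; 0 to 17). With a replicate block these 6 counts were 608, 335, 79, 5, 5 and 0. Deviations of same-numbered libraries had r of -0.372 (control and shGlis3), -0.428 (control and shCD133) and 0.032 (shGlis3 and shCD133). Whether the numbers pair the samples cannot be told from these values, since other differences between libraries also enter them. With crossed numbers, an alternative chosen after seeing the data, the counts were 1497, 1456, 634, 21, 19 and 11. Where limma called 0, genes with an unadjusted p under 0.05 numbered 2444 and 2672 in the CD133 knockdown without control library 1 or 3, and 21 to 30 among the other defence genes; no other tool was run. With 1 library left in a group, that library is assumed to vary like the others. The cause of these shifts was not tested. Depth limits Tff2 most.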
